A study of Mus musculus with 13 samples.

Results

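This account concerns *Trp53*, the mouse gene for the transcription factor p53, and 9 established p53 targets that act in cell cycle arrest, in feedback on p53 and in adaptation to stress: *Cdkn1a*, *Mdm2*, *Ccng1*, *Btg2*, *Trp53inp1*, *Sesn1*, *Sesn2*, *Phlda3* and *Zmat3*. The 10 genes were found by symbol among 33618 Ensembl genes, and all 10 were among the 16753 that passed a filter on low counts. They were selected on a list drawn up with earlier results of the contrast between genotypes in these libraries known, so their differences between genotypes are given as a description, with no p-value. p53 is kept scarce in unstressed cells by MDM2, the ubiquitin ligase that marks it for degradation. Stress such as DNA damage releases it, and it then binds DNA and switches on genes that halt the cell cycle, repair damage or kill the cell. *Mdm2* is itself such a target, which closes a negative feedback loop. In white fat, p53 has been linked to adipocyte ageing, inflammation and insulin resistance.

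Parametrial white adipose tissue (pmWAT) came from 13 female mice, with 1 library per mouse. All mice were *Lmna* fl/fl, with loxP sites around exons 10 and 11 of the gene for lamins A and C. The 7 mice labelled fl/fl carried no Cre and the 6 labelled iADKO also carried *Adipoq*-CreERT2, a tamoxifen-activated recombinase driven by the promoter of the adiponectin gene and so active in adipocytes. Every mouse received tamoxifen at 50 mg/kg on 5 days at an age of 12 to 14 weeks, and tissue was taken 2 weeks later. The tissue was not separated into cell types, so fewer cells of a type and less RNA per cell cannot be told apart. The control group has no Cre, so an effect of the recombinase itself and loss of lamin A/C cannot be told apart either.

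The 13 libraries held 18854223 to 19776491 counted reads each. Levels are in CPM, counts scaled to a common library size with edgeR's TMM factors, which lay between 0.892 and 1.02 in fl/fl and between 1.05 and 1.1 in iADKO. The targeted gene, *Lmna*, averaged 84.7 ± 7.51 CPM in the 7 fl/fl mice and 96.7 ± 11.5 CPM in the 6 iADKO mice (± SD, here and throughout), with a log2 fold change of 0.19 (SE 0.079, edgeR quasi-likelihood test with Benjamini-Hochberg adjusted p = 0.0785). The counts cover the whole gene and the floxed exons cannot be counted apart, so each direction below rests on the labels. All 7 adipocyte markers (*Adipoq*, *Plin1*, *Lep*, *Cidec*, *Retn*, *Cfd* and *Pparg*) were detected and fell in iADKO, and their summed level ran from 13212 to 18801 CPM in fl/fl and from 7986 to 13338 CPM in iADKO. Of 9 macrophage markers, 7 rose and none fell, and their summed level ran from 2139 to 5578 CPM in fl/fl and from 3306 to 5728 CPM in iADKO. Of 4 B cell markers 2 rose (summed level 19.7 to 53.1 CPM in fl/fl and 33.9 to 72.6 CPM in iADKO), of 4 T cell markers 1 rose (8.68 to 15.7 and 13.9 to 17.9 CPM), and of 5 endothelial markers 2 fell (664 to 889.6 and 656 to 775 CPM). In these lists, rose and fell mean an adjusted p under 0.05, a threshold that 30.5% of all genes tested passed. The shares called were 100% of adipocyte, 77.8% of macrophage, 50% of B cell, 25% of T cell and 40% of endothelial markers. The T cell and endothelial shares were thus near that of all genes. The endothelial genes *Pecam1*, *Tek* and *Emcn* had log2 fold changes of 0.05, -0.02 and 0.04. No marker of adipose progenitors, mesothelium, smooth muscle or skeletal muscle passed the threshold, with smooth muscle at 388 to 876 CPM in fl/fl and 532 to 1987 CPM in iADKO. No marker of these lists was at 0 in every library. The part of the macrophage and adipocyte markers in the differences below was examined only through the covariate and the correlations given further on, and that of the other cell types was not tested. The mouse labelled iADKO replicate 6 stood apart in several genes and is named where it did.

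The DNA that p53 binds is a pair of adjoining 10-base units, each made of 3 purines, a C, 2 bases that are A or T, a G and 3 pyrimidines. This consensus reads the same on both strands. It was searched for in the GRCm39 genome without a spacer, with the C and G of each unit required and at most 2 other mismatches, within 3000 bases of the canonical start site of 14122 protein-coding genes among those tested. The matches beside the 10 genes are shown, on the strand of the gene, because they are the stretches near these start sites that most resemble DNA bound by p53, with the 4 core bases of each unit in capitals.
Cdkn1a, chr17:29309902-29309921, plus strand, position -2836 from the canonical start and just before the first base annotated to the gene, 1 mismatch: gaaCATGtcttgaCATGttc
Zmat3, chr3:32418480-32418499, minus strand, position 1409 in an intron of the canonical transcript, which another *Zmat3* transcript has as exon, 0 mismatches: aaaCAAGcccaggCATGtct
Ccng1, chr11:40646289-40646308, minus strand, position -170, 1 mismatch: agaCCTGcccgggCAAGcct
Ccng1, chr11:40645763-40645782, minus strand, position 356 in an intron, 1 mismatch: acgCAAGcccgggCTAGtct
*Zmat3* alone of the 10 had a match without mismatch, as did 0.127% of the 14122 genes (18 genes). With at most 1 mismatch, 3 of the 10 genes and 1.03% of all genes searched had a match (145 genes). With at most 2 mismatches the members were the same 3 and the share of all genes was 6.51% (919 genes). The other 7 genes had no such letters in this window, which says nothing of p53 at sites with a spacer, with more mismatches or farther away. The second *Ccng1* match lies clear of annotated exons, and in chr11:40645723-40645822 it reads, with the match in capitals, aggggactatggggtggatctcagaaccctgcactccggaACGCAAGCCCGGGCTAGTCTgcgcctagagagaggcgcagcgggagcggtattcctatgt.

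Of the 10 genes, 8 were higher and 1 was lower in iADKO past an adjusted p of 0.05, where 14.1% of all genes tested were called higher, 16.3% lower and 30.5% in either direction (5104 of 16753). In 6 genes (*Trp53*, *Cdkn1a*, *Mdm2*, *Btg2*, *Trp53inp1* and *Zmat3*) every iADKO mouse was above every fl/fl mouse, as was so for 2.71% of all genes tested, and the opposite order, found in 3.93% of all genes, was found in none of the 10. The median log2 fold change was 0.46 over the 10 genes and 0.033 over all genes tested. Since the genes were selected on this contrast, nothing is read from these counts. The size of the difference varied widely among the 10, from a log2 fold change of 2.19 for *Cdkn1a* to one of -0.41 for *Phlda3*.

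**Figure D1:**
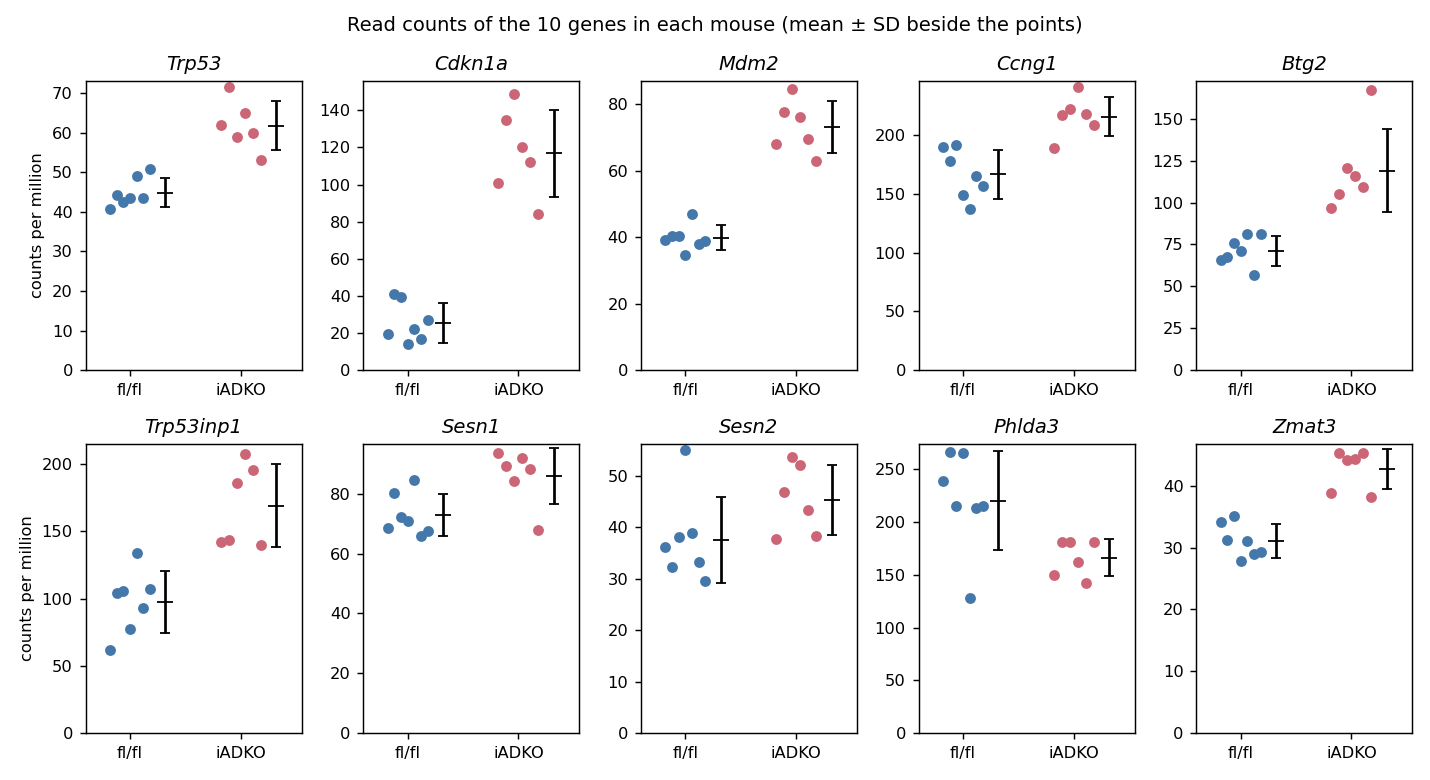
Each panel plots 1 gene in TMM-scaled CPM, with a point for each of 7 fl/fl mice (blue) and 6 iADKO mice (red) and the mean ± SD beside the points; every vertical axis starts at 0. The groups are apart for *Trp53*, *Cdkn1a*, *Mdm2*, *Btg2*, *Trp53inp1* and *Zmat3* and overlap for *Ccng1*, *Sesn1*, *Sesn2* and *Phlda3*.

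*Trp53* (ENSMUSG00000059552) lies on chromosome 11 from 69469669 to 69482701 on the plus strand, with 11 exons in its canonical transcript. Its lowest, median and highest levels were 40.6, 43.5 and 50.9 CPM in fl/fl and 53.2, 60.9 and 71.5 CPM in iADKO. The lowest iADKO mouse, replicate 6, lay just above the highest fl/fl mouse, replicate 7. The groups averaged 44.9 ± 3.68 and 61.7 ± 6.17 CPM, a log2 fold change of 0.46 (SE 0.07). *Wrap53*, which overlaps it on the other strand, was at 14.5 CPM in fl/fl and 12.1 CPM in iADKO, and whether counting used the strand is not given in the sources used here.

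*Mdm2* (ENSMUSG00000020184, chromosome 10, 117524780 to 117546730, minus strand, 12 exons), the ligase of the feedback loop, ran from 34.7 through a median of 39.3 to 47.1 CPM in fl/fl and from 62.9 through 72.9 to 84.5 CPM in iADKO. The groups were separated by a gap wider than the whole range of the fl/fl mice. The groups averaged 39.8 ± 3.73 and 73.2 ± 7.77 CPM, a log2 fold change of 0.88 (SE 0.076). *Mdm4*, its paralog, which binds and blocks p53 without degrading it, averaged 175 ± 14.3 CPM in fl/fl and 174 ± 11 CPM in iADKO and did not pass the threshold (edgeR quasi-likelihood adjusted p = 0.967).

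*Cdkn1a* (ENSMUSG00000023067, chromosome 17, 29309936 to 29319701, plus strand, 3 exons) encodes p21, the inhibitor of cyclin-dependent kinases through which p53 arrests the cell cycle. It was at 14, 22 and 41.2 CPM (lowest, median and highest) in fl/fl and at 84, 116 and 149 CPM in iADKO. The lowest iADKO mouse, replicate 6, was above the 2 highest fl/fl mice, replicate 2 at 41.2 CPM and replicate 3 at 39.2 CPM, which stood clear of the other fl/fl mice at 14 to 27 CPM. The mean of iADKO, 117 ± 23.4 CPM, was 4.56 times that of fl/fl, 25.6 ± 10.8 CPM, with a log2 fold change of 2.19 (SE 0.25). Its counts ran from 261 to 3095 per library, so counting error was small beside the spread between mice. The noncoding gene *Dino*, which overlaps it on the other strand, was at 0.294 CPM in fl/fl and 1.17 CPM in iADKO.

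*Ccng1* (ENSMUSG00000020326, chromosome 11, 40639377 to 40646148, minus strand, 6 exons) encodes cyclin G1, which recruits a phosphatase to MDM2. It was at 137, 165 and 192 CPM (lowest, median and highest) in fl/fl and at 189, 218 and 241 CPM in iADKO. One iADKO mouse, replicate 1 at 189 CPM, fell within the fl/fl range, and the other 5 were above it. Group means were 167 ± 20.8 and 216 ± 17.2 CPM, a log2 fold change of 0.37 (SE 0.083). The gene for NUDCD2 overlaps it on the other strand at 18.8 and 19.9 CPM.

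*Btg2* (ENSMUSG00000020423, chromosome 1, 134002908 to 134015033, minus strand, 2 exons) encodes an antiproliferative protein that promotes mRNA deadenylation, and it is induced by growth factors as well as by p53. It was at 56.9, 71.2 and 81.2 CPM (lowest, median and highest) in fl/fl and at 96.7, 113 and 167 CPM in iADKO. iADKO replicate 6 held the highest value, and the other iADKO mice lay between 96.7 and 120.5 CPM. Group means were 71.3 ± 8.87 and 119 ± 25 CPM, a log2 fold change of 0.74 (SE 0.12), and of 0.62 without that mouse. Its paralog *Btg1* rose from 164 ± 12.9 to 219 ± 14.4 CPM (log2 fold change 0.41, SE 0.062, edgeR quasi-likelihood adjusted p = 0.000556) with no overlap between groups, and *Btg3* was at 4.04 and 4.12 CPM.

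*Trp53inp1* (ENSMUSG00000028211, chromosome 4, 11156412 to 11175230, plus strand, 4 exons) encodes a stress protein that binds kinases acting on p53 and takes part in autophagy. It was at 61.6, 104 and 134 CPM (lowest, median and highest) in fl/fl and at 139.7, 165 and 208 CPM in iADKO. The groups came close, with fl/fl replicate 5 at 134 CPM and iADKO replicate 6 at 139.7 CPM. Group means were 97.5 ± 23.4 and 169 ± 30.8 CPM, a log2 fold change of 0.79 (SE 0.16). Its paralog *Trp53inp2*, an autophagy factor, fell from 264 ± 53.1 to 194 ± 26.7 CPM (log2 fold change -0.45, SE 0.13, edgeR quasi-likelihood adjusted p = 0.0164), so the pair stood on opposite sides of 0.

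*Zmat3* (ENSMUSG00000027663, chromosome 3, 32388941 to 32420163, minus strand, 6 exons) encodes an RNA-binding zinc finger protein that regulates splicing and was first known as PAG608 or WIG1. It was at 27.8, 31.1 and 35.1 CPM (lowest, median and highest) in fl/fl and at 38.3, 44.2 and 45.3 CPM in iADKO. The spread was small in both groups and they were apart. Group means were 31.1 ± 2.69 and 42.7 ± 3.25 CPM, a log2 fold change of 0.46 (SE 0.066).

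The sestrins restrain mTORC1, the kinase complex that drives growth, and protect against oxidants. *Sesn1* (ENSMUSG00000038332, chromosome 10, 41685931 to 41784423, plus strand, 10 exons) was at 65.9, 70.8 and 84.6 CPM (lowest, median and highest) in fl/fl and at 68, 88.9 and 93.5 CPM in iADKO. The groups overlapped through iADKO replicate 6 at 68 CPM, fl/fl replicate 5 at 84.6 CPM and iADKO replicate 3 at 84.4 CPM. The log2 fold change was 0.24 (SE 0.079), and the gene lost its call in 10 of the 13 fits that left out 1 mouse. *Sesn2* (ENSMUSG00000028893, chromosome 4, 132219335 to 132237815, minus strand, 10 exons), which amino acid and oxidative stress also induce, was at 29.6, 36.1 and 55 CPM in fl/fl and at 37.7, 45.1 and 53.8 CPM in iADKO. fl/fl replicate 4 held the highest value of all 13 mice, and the log2 fold change of 0.27 (SE 0.13) did not pass the threshold. Without that mouse it was 0.39 and passed. *Sesn3*, the family member known as a FoxO target, averaged 96.1 ± 14.2 and 82.5 ± 4.42 CPM (log2 fold change -0.22, SE 0.089, edgeR quasi-likelihood adjusted p = 0.0752), and passed the threshold at -0.28 when fl/fl replicate 7 was left out.

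*Phlda3* (ENSMUSG00000041801, chromosome 1, 135693809 to 135697686, plus strand, 2 exons) encodes a pleckstrin homology domain protein that competes with AKT for membrane lipids. It was the only one of the 10 that was lower in iADKO. Its lowest, median and highest levels were 128, 215 and 267 CPM in fl/fl and 142, 171 and 181 CPM in iADKO. Of the fl/fl mice, 6 were at 213 CPM or more and above every iADKO mouse, while replicate 5 was below all of them. Group means were 220.2 ± 47.1 and 166 ± 17.6 CPM, a log2 fold change of -0.41 (SE 0.14), and without fl/fl replicate 5 it was -0.50. The call was lost in 11 of the 13 fits that left out 1 mouse.

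Per kilobase of annotated exon, the 10 genes covered a wide range of levels. In fl/fl, *Phlda3* was highest at 85.1 ± 18.2 CPM per kilobase and *Ccng1* next at 38 ± 4.72, with no overlap between them. *Sesn1* at 14.4 ± 1.38, *Trp53inp1* at 13.3 ± 3.18 and *Btg2* at 11.4 ± 1.42 were within their spread of one another, and *Sesn2* at 8.28 ± 1.85, *Trp53* at 6.08 ± 0.498, *Mdm2* at 5.16 ± 0.484 and *Cdkn1a* at 4.24 ± 1.78 overlapped with their neighbours in that order. *Zmat3* had the lowest mean, 2.72 ± 0.235 CPM per kilobase over 11442 bases of exon. Its fl/fl range, 2.43 to 3.06, lay within that of *Cdkn1a*, 2.32 to 6.82. In iADKO, *Cdkn1a* was at 19.3 ± 3.87 CPM per kilobase, beside *Trp53inp1* at 23 ± 4.19 and *Btg2* at 19 ± 4, and within their spread. By its mean, *Cdkn1a* thus moved from the second lowest level of the 10 to the fourth highest. The means of *Phlda3*, *Ccng1* and *Zmat3* kept the first, second and last places.

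The animal numbers in the library names fall into series, and those from 722 to 727 and from 747 to 765 held mice of both genotypes. In the first of these (2 fl/fl and 2 iADKO mice), the log2 fold changes were 2.50 for *Cdkn1a*, 0.89 for *Btg2*, 0.76 for *Mdm2*, 0.72 for *Trp53inp1*, 0.65 for *Ccng1*, 0.49 for *Zmat3* and 0.35 for *Trp53*. In the other (3 fl/fl and 2 iADKO mice), they were 1.82 for *Cdkn1a*, 0.52 for *Btg2*, 0.86 for *Mdm2*, 0.65 for *Trp53inp1*, 0.11 for *Ccng1*, 0.32 for *Zmat3* and 0.64 for *Trp53*. *Sesn1* was at 0.04 and 0.30, *Sesn2* at -0.06 and 0.24, and *Phlda3* at -0.20 and -0.55. *Ccng1* was apart between genotypes in the first series, at 137 to 149 and 209 to 241 CPM, and overlapped in the other, at 178 to 192 and 189 to 217 CPM. The labels name 1 batch for all libraries, and 2 fl/fl mice and 2 iADKO mice had numbers in series of their own genotype only.

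The macrophage markers were higher in iADKO, and the fit was repeated with their mean log2 CPM as a covariate. That mean was 7.56 ± 0.36 in fl/fl and 8.25 ± 0.28 in iADKO. The covariate thus went with genotype, and this fit cannot fully tell the 2 apart. Over all genes, 276 then passed the threshold in place of 5104. The log2 fold change of *Cdkn1a* was then 2.02 (SE 0.445), just short of the threshold, against 2.19 (SE 0.252) without the covariate. *Mdm2* at 0.67, *Btg2* at 0.78, *Ccng1* at 0.52 and *Zmat3* at 0.43 stayed past it. *Trp53* dropped to 0.24 and *Trp53inp1* to 0.38, both short of it, and *Phlda3* was at -0.02. *Sesn1* was at -0.0013 with an SE of 0.0905.

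**Figure D2:**
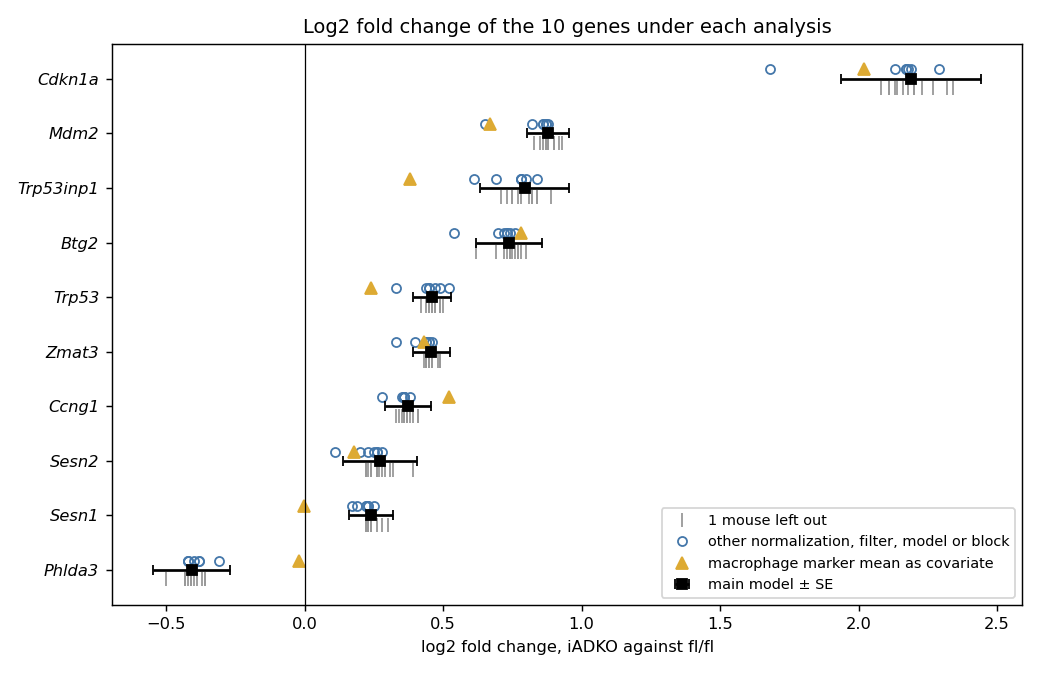
The horizontal axis is the log2 fold change of iADKO against fl/fl for each of the 10 genes, with black squares and bars for the main model ± SE, grey ticks for fits with 1 mouse left out, open circles for other normalizations, filters, models and blocks, and triangles for the fit with the macrophage marker mean as a covariate. *Cdkn1a* lies at 1.68 or above in every fit, while the triangles of *Sesn1* and *Phlda3* lie close to 0.

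Within a genotype, the correlations among the 10 genes ranged from negative to positive. Each gene's log2 CPM was taken as its deviation from the mean of its genotype, which the contrast between genotypes does not set, and correlated across the 13 mice. These correlations are a description with no test, and the mice share series and cell makeup. Pairs of other genes were not compared, and 13 mice cannot show that shared variation is absent. Over the 45 pairs of genes the median Pearson r was 0.08, between -0.58 and 0.70, with 7 pairs above 0.5. *Ccng1* and *Zmat3* had the highest (r = 0.70, Spearman's rho = 0.79, and r = 0.84 without the 2 mice farthest from the median). *Cdkn1a* had r = 0.61 with *Zmat3* (rho = 0.60, 0.58 without the 2 farthest mice), 0.54 with *Mdm2* (rho = 0.63, 0.71) and 0.48 with *Ccng1* (rho = 0.51, 0.25). With *Trp53* itself, *Cdkn1a* had r = 0.25 (rho = 0.29, 0.15 without the 2 farthest mice). *Btg2* had r between -0.42 and 0.19 with the other 9 genes.

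Some of the 10 genes also varied with readouts outside the group. *Btg2* had r = 0.90 (rho = 0.83, 0.84 without the 2 farthest mice, and between 0.88 and 0.93 leaving out any 1 mouse) with the mean of 11 immediate early genes, the transcription factors and regulators that growth factors and tissue handling induce within minutes. iADKO replicate 6, the mouse with the highest *Btg2*, also had the highest *Fos*, 66 CPM against 15.9 to 25.9 CPM in the other iADKO mice. *Trp53* had r = 0.78 (rho = 0.79, 0.72) with the mean of the macrophage markers and -0.64 (rho = -0.74, -0.44) with that of the adipocyte markers. *Sesn1* (r = 0.74, rho = 0.56, 0.38), *Mdm2* (r = 0.68, rho = 0.60, 0.29) and *Trp53inp1* (r = 0.64, rho = 0.64, 0.44) also went with the macrophage markers, but in these the values without the 2 farthest mice were lower. With the adipocyte markers the values were -0.69 for *Sesn1* (rho = -0.47, -0.29), -0.50 for *Mdm2* (rho = -0.29, 0.11) and -0.68 for *Trp53inp1* (rho = -0.60, -0.51). *Phlda3* went with the adipocyte markers (r = 0.73, rho = 0.54, 0.43) and against the macrophage markers (r = -0.63, rho = -0.38, -0.17). *Cdkn1a* had r = 0.20 with the macrophage markers and -0.03 with the adipocyte markers, and *Zmat3* had 0.11 and -0.15.

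**Figure D3:**
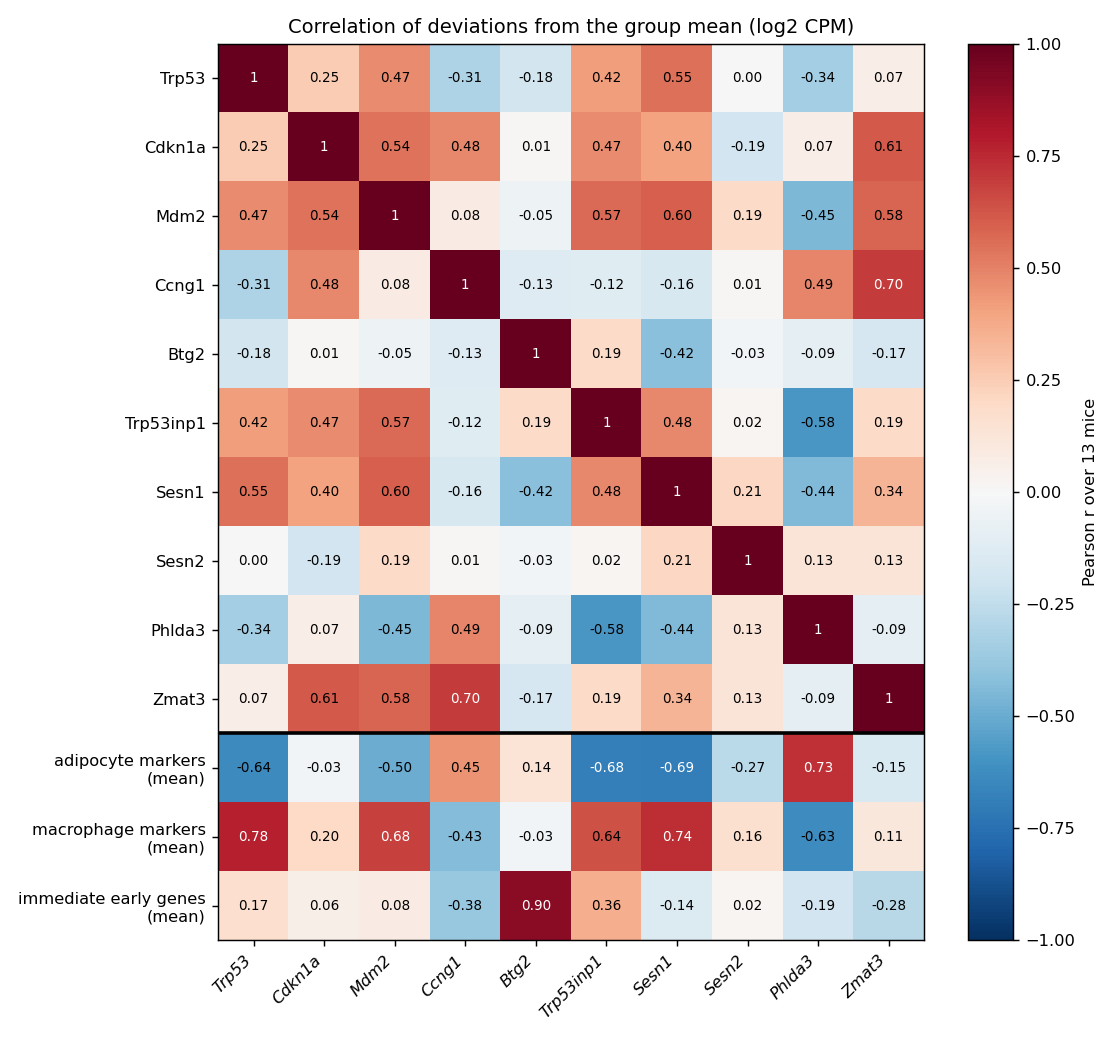
Each cell gives the Pearson r over 13 mice between the deviations of 2 genes from their genotype means in log2 CPM, and the 3 rows under the line give r with the mean of a marker or gene list. *Cdkn1a*, *Mdm2* and *Zmat3* have r from 0.54 to 0.61 with one another, and *Btg2* is near 0 with most genes and at 0.90 with the immediate early genes.

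Among 13668 other genes with a mean log2 CPM of at least 1, the 5 whose deviations were most like those of *Cdkn1a* were *Fkbp5* (r = 0.90, rho = 0.87), a co-chaperone of steroid receptors, *Mc5r* (r = 0.89, rho = 0.85), a melanocortin receptor, *Zbtb16* (r = 0.89, rho = 0.87), a zinc finger transcription factor, *Tmem87b* (r = 0.88, rho = 0.85), a membrane protein, and *Map3k6* (r = 0.88, rho = 0.82), a stress kinase. Without the 2 mice farthest from the median of *Cdkn1a*, r was between 0.71 and 0.78. The 5 were picked as the highest of many, so their r is a description. In fl/fl, replicates 2 and 3, the mice with the highest *Cdkn1a*, also had the highest *Fkbp5*, at 206 and 185 CPM against 51.5 to 86.6 CPM in the other fl/fl mice. Between genotypes these genes differed from *Cdkn1a*. *Fkbp5* averaged 105 ± 63.5 CPM in fl/fl and 81.5 ± 21.8 CPM in iADKO, a log2 fold change of -0.37 (SE 0.353), and the log2 fold changes of the other 4 lay between -0.39 and -0.09.

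**Figure D4:**
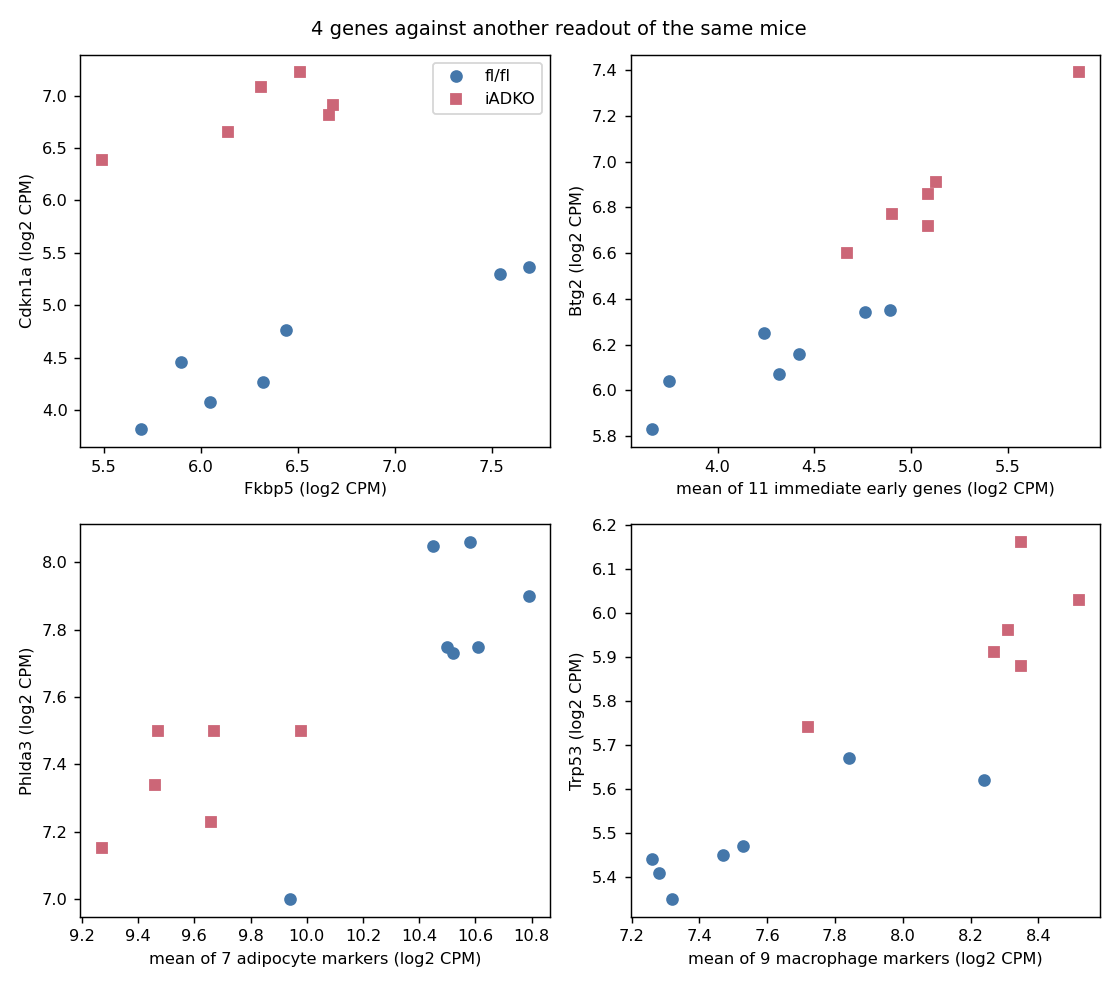
The 4 panels plot the log2 CPM of *Cdkn1a*, *Btg2*, *Phlda3* and *Trp53* against *Fkbp5*, the mean of 11 immediate early genes, the mean of 7 adipocyte markers and the mean of 9 macrophage markers, with blue circles for fl/fl and red squares for iADKO mice. *Cdkn1a* rises with *Fkbp5* among the fl/fl mice, and the iADKO mice form a separate band above them. Among the iADKO mice, replicate 6 is lowest in both, at 5.49 for *Fkbp5* and 6.39 for *Cdkn1a*. Replicates 4 and 5, highest in *Fkbp5*, lie below replicates 2 and 3 in *Cdkn1a*. *Btg2* rises with the immediate early genes in both genotypes. At similar levels of these genes the iADKO mice lie higher. iADKO replicate 5 has 6.77 for *Btg2* at 4.90, and fl/fl replicate 5 has 6.35 at 4.89.

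The other genes of the pathway were read from lists written with knowledge of earlier results of these data, and were tested over all genes by the edgeR quasi-likelihood test with Benjamini-Hochberg adjustment. Of 56 further p53 target genes tested, 27 rose and 7 fell in iADKO, 60.7% of them, against 30.5% of all genes, and their median log2 fold change was 0.26. Of 15 tested regulators of p53, 3 rose, 2 fell and 10 did not pass, with a median of 0.07. The share called, 33.3%, was near that of all genes. *Hipk2*, a kinase of p53, fell from 255 ± 48.7 to 166 ± 26.7 CPM (log2 fold change -0.62, SE 0.13, adjusted p = 0.00406), and *Cop1*, a ligase of p53, fell by 0.16 (adjusted p = 0.0429). *Chek1*, a kinase of the DNA damage checkpoint, rose by 0.67 on the log2 scale, which all such changes below are on (adjusted p = 0.0304), and *Ppm1d*, a phosphatase that switches p53 off, by 0.22 (adjusted p = 0.0274) and *Ep300*, an acetyltransferase, by 0.20 (adjusted p = 0.0355). Leaving out 1 mouse lost the call of *Cop1* and *Ep300* in 10 of 13 fits each, of *Chek1* in 6 and of *Ppm1d* in 5. *Atm*, the kinase that signals double-strand breaks, was at 31.8 ± 3.11 and 33.4 ± 2.23 CPM (adjusted p = 0.446). *Cdkn2a* was too low to be tested, at 0.343 CPM in fl/fl and 0.489 CPM in iADKO.

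Among 12 other arrest targets tested, 7 rose and none fell, with a median log2 fold change of 0.43. The difference was greatest for *Gtse1*, a microtubule protein that binds p53, which rose from 1.5 ± 0.238 to 9.62 ± 2.28 CPM (log2 fold change 2.67, SE 0.16, adjusted p = 1.25e-06), more than *Cdkn1a* on this scale. *Trp53cor1*, the noncoding RNA next to *Cdkn1a* also known as lincRNA-p21, rose from 0.674 ± 0.303 to 1.6 ± 0.385 CPM (log2 fold change 1.24, SE 0.27, adjusted p = 0.00399), and *Ier5* from 24.2 ± 5.73 to 42.4 ± 2.91 CPM (0.81, SE 0.13). *Sfn*, the arrest protein 14-3-3 sigma of epithelia, rose by 1.09 (SE 0.38, adjusted p = 0.0429) through iADKO replicate 6 at 20.6 CPM, the other iADKO mice being at 3.75 to 7.6 CPM, and at 0.55 without that mouse it was short of the threshold, as it was in 8 of the 13 fits that left out 1 mouse. *Gadd45a*, a classical arrest gene, was at 14.8 ± 3.7 and 17.5 ± 1.47 CPM (adjusted p = 0.219).

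Of 12 apoptosis targets, 9 rose and none fell, with a median of 0.39. *Pmaip1*, which encodes the BH3 protein NOXA, rose from 3.17 ± 1.05 to 6.07 ± 0.572 CPM (0.93, SE 0.19, adjusted p = 0.00256), *Pidd1* by 0.76 and the exonuclease gene *Aen* by 0.54, all 3 without overlap between groups. *Apaf1*, the core of the apoptosome, rose by 0.45. *Bbc3*, which encodes PUMA, was at 11.4 ± 2.56 and 11.2 ± 2.87 CPM (adjusted p = 0.918). In a list of 10 secreted and membrane targets that also held the cytoskeletal genes *Psrc1* and *Ckap2*, 5 rose and none fell, with a median of 0.48. *Gdf15*, a stress hormone that curbs appetite, rose from 1.25 ± 0.721 to 5.88 ± 1.79 CPM (2.22, SE 0.31, adjusted p = 0.000426), *Psrc1*, a spindle protein, by 1.46 (SE 0.17) and *Eda2r*, a receptor of the TNF family, from 6.1 ± 1.33 to 16.6 ± 2.13 CPM (1.44, SE 0.13). *Ckap2* rose by 0.60 and lost its call in 4 of the 13 fits that left out 1 mouse.

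Of 8 repair targets, 3 rose (*Polk*, *Pcna* and *Ercc5*, by 0.40, 0.38 and 0.33) and 2 fell (*Rrm2b* by 0.35 and *Xpc* by 0.29), with a median of 0.04. Of 14 metabolic and autophagy targets, 3 rose and 5 fell, with a median of -0.19. *Lpin1*, a phosphatidate phosphatase abundant in adipocytes, fell from 600 ± 164 to 328 ± 21.8 CPM (log2 fold change -0.87, SE 0.16, adjusted p = 0.0015), and *Pank1*, *Aifm2* and *Aldh4a1* had log2 fold changes of -0.79, -0.64 and -0.60. The 3 that rose were *Sco2* (0.74), *Gpx1* (0.39) and *Prkab1* (0.24). All adipocyte markers fell in the same libraries, and the part of adipocyte content in these values was not tested.

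The cell cycle genes that p21 represses through the DREAM complex included none that was called lower. Of 11 tested, 5 rose and none fell (45.5% called, against 30.5% of all genes), with a median of 0.47. Among those that rose were *Ccnb1*, *Birc5*, *Mki67* and *Cdk1*, by 0.72, 0.65, 0.51 and 0.47. *Ccnb1*, the cyclin of mitotic entry, was at 1.44 ± 0.416 and 2.38 ± 0.402 CPM, and *Mki67*, a marker of cycling cells, at 17.9 ± 3.95 and 25.5 ± 3.88 CPM. *Birc5* lost its call in 3 of the 13 fits that left out 1 mouse, and *Ccnb1*, *Birc5* and *Mki67* lost theirs with the animal series as a block. Of the paralogs of the 10 genes, 11 of 14 could be tested, 1 rose (*Btg1*) and 2 fell, with a median of 0.03. The share called was 27.3%, near the 30.5% of all genes. Besides *Trp53inp2*, *Cdkn1c*, which encodes p57, a sister inhibitor of p21, fell by 0.80 (SE 0.24, adjusted p = 0.0216), with fl/fl replicate 4 at 72 CPM and all other mice at 37 CPM or less, and without iADKO replicate 5 its change of -0.75 was just short of the threshold. *Cdkn1b*, which encodes p27, was at 69.4 ± 6.74 and 76 ± 1.76 CPM (adjusted p = 0.106), and passed at 0.18 without fl/fl replicate 5. *Ccng2*, *Phlda1*, *Zmat1* and *Trp63* had log2 fold changes of 0.13, 0.18, -0.19 and 0.18 and did not pass, *Trp63* with 29.6 CPM in iADKO replicate 6 and at most 9.19 CPM in the other iADKO mice. *Trp73*, *Phlda2* and *Zmat4* were too low to be tested.

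**Figure D5:**
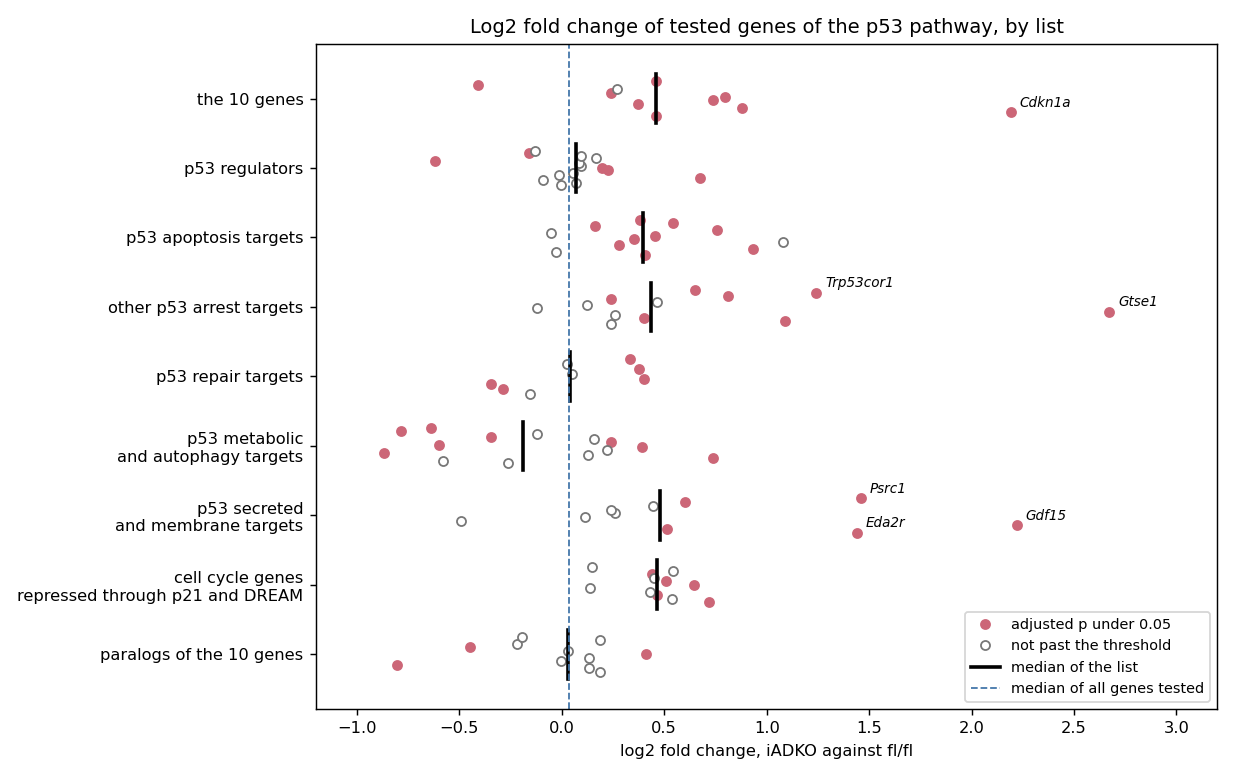
Each point is the log2 fold change of 1 tested gene, iADKO against fl/fl, in rows for the 10 genes and 8 further lists, filled where the adjusted p was under 0.05, with a black bar at the median of each list and a dashed line at the median of all genes, 0.033. *Gtse1*, *Gdf15* and *Cdkn1a* lie farthest to the right, and the metabolic and autophagy targets are the one list with its median below 0, at -0.19.

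Programs other than p53 also act on some of the 10 genes. Of all genes tested, 30.5% were called in either direction. The shares were 36.4% of the immediate early genes, 50% of the ATF4 genes and 25% of the FoxO targets. The lists are short, and whether these programs were active was not tested. Of the 11 immediate early genes, which share inducers with *Btg2*, 4 rose and none fell: *Egr2* from 7.25 ± 3.22 to 23.5 ± 4.95 CPM (log2 fold change 1.69, SE 0.25, adjusted p = 0.000579), *Fos* by 1.47, *Atf3* by 1.44 and *Junb* by 0.73 (adjusted p = 0.0491), the last losing its call in 11 of the 13 fits that left out 1 mouse. Of 10 genes of ATF4, the stress factor that induces *Sesn2*, 2 rose (*Ddit3* by 0.59 and *Ppp1r15a* by 0.56) and 3 fell (*Chac1*, *Asns* and *Vldlr*, with log2 fold changes of -0.66, -0.49 and -0.36), and *Vldlr* lost its call in 8 of those 13 fits. Of 8 FoxO targets, none rose and 2 fell (*Klf15* and *Pink1*, -0.62 and -0.44).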

How the data were processed

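RNA-Seq of whole pmWAT was analyzed for 7 fl/fl and 6 iADKO mice, grouped by the sample titles. The authors deposited raw counts per gene for 33618 Ensembl genes, and log2 values made from them with DESeq2's regularized log (rlog). The methods state strand-specific mRNA libraries, and the submitters' processing notes name STAR 2.7.11a, FastQC 0.12.1 and the mm39 genome. The counting tool and its strand setting are not given in the sources used here. Of the genes, 33184 matched GENCODE vM39, which gave symbols, exon lengths and coordinates on GRCm39, and sequences were read from that genome.

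In R 4.3.3, counts were filtered with edgeR 4.0.16's filterByExpr, scaled by TMM and compared with its robust quasi-likelihood test, Benjamini-Hochberg adjusted over 16753 genes at a threshold of 0.05. SE is the absolute log2 fold change divided by the square root of F, and log2 CPM used a prior count of 2. The fit was checked on simulated counts. A p-value sets the difference between genotypes against the spread between mice, and the number of mice limits the precision. The members and lists were chosen with earlier results of these data known. Named are the 10 genes, *Lmna*, their paralogs, up to 4 genes past the threshold per list and direction, and the 5 genes closest to *Cdkn1a*, and a few listed genes that did not pass were named after their values were seen. Alternatives were DESeq2's size factors, the DESeq2 1.42.0 Wald test, no filter, at least 10 counts in every sample, blocks of replicate number or animal series, limma 3.58.1 on rlog values, the macrophage covariate, Spearman's rho and each mouse left out.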

Additional observations from a re-analysis of the deposited data

Results flagged for a closer look

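The mice of each genotype formed 142 groups over 71 genes taken by the naming rule. In each group the highest or lowest mouse was set against the others by Dixon's criterion, which chance alone meets in about 1 of 20 groups. All groups reuse the same 13 mice and are not independent. The criterion was met in 15 groups. The mouse labelled iADKO replicate 6 accounted for 8 of them. It was high for *Btg2* (167 CPM against 96.7 to 120.5 in the other iADKO mice), *Fos* (66 against 15.9 to 25.9), *Junb* (86.7 against 40.3 to 55.6), *Asns* (92.2 against 56.6 to 65.7), *Sfn* (20.6 against 3.75 to 7.6) and *Trp63* (29.6 against 2.71 to 9.19), and low for *Sesn1* (68 against 84.4 to 93.5) and *Mki67* (18 against 25.6 to 29). Among the 10 genes, fl/fl replicate 4 was high for *Sesn2* (55 CPM against 29.6 to 38.9) and fl/fl replicate 5 was low for *Phlda3* (128 against 213 to 267). Of the other genes, fl/fl replicate 4 was high for *Cdkn1c* (72 CPM), fl/fl replicate 5 for *Eda2r* (8.86 CPM), fl/fl replicate 7 for *Cdk1* (4.42 CPM) and fl/fl replicate 1 for *Pink1* (267 CPM), and iADKO replicate 3 was low for *Sesn3* (74 CPM). Why these mice stood apart was not tested.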

How the results depend on the processing

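The count of the 10 genes past the threshold was 9 of 10, stayed between 7 and 9 under every alternative except the macrophage covariate and when 1 mouse was left out, and was 4 with that covariate. With it, genes past the threshold were 276 over all genes, 6 of 92 among the other pathway genes (47 in the main model) and 1 of 29 among genes of other inputs (11 in the main model). With the animal series as a block the counts were 1986, 24 and 7, and the calls lost were those of *Sesn1* and *Phlda3* among the 10 genes, and among the other genes named those of *Trp53inp2*, *Cdkn1c*, *Chek1*, *Ppm1d*, *Ep300*, *Hipk2*, *Cop1*, *Pidd1*, *Apaf1*, *Trp53cor1*, *Sfn*, *Xpc*, *Pank1*, *Ckap2*, *Ccnb1*, *Birc5*, *Mki67*, *Fos*, *Junb*, *Asns* and *Vldlr*. In the fit with the series block, mice in series of their own genotype only add nothing to the contrast. Fewer mice therefore informed it, and a series effect and this loss of mice cannot be told apart. Leaving out 1 mouse gave 3998 to 6604 genes, 7 to 9 of the 10 genes, 38 to 54 other pathway genes, 9 to 15 genes of other inputs and a median r over pairs of 0.05 to 0.23 (0.18 by Spearman's rho). Replicate numbers recur in both genotypes, and the deviations of same-numbered mice correlated between -0.0265 and 0.217. Of 6 fl/fl mice, 3 were closest to their own number. Whether same-numbered mice share more than a number was not tested. The replicate block, which drops fl/fl replicate 7, gave 4833 genes, 9 of the 10 genes, 46 other pathway genes and 11 genes of other inputs.

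Of 210 values of the 10 genes, 178 stayed on the same side of the threshold in the same direction, and *Sesn1* at -0.0013 with the macrophage covariate was the only one to change direction. The direction was not stable in 7 other genes, none of them past the threshold in the main model except *Apaf1*: *Trp63* (-0.21 with the replicate block, -0.03 with the series block, -0.11 by limma on rlog values, and -0.53 to 0.38 leaving out 1 mouse, negative without iADKO replicate 6), *Mdm4* (0.0017 with at least 10 counts in every sample, -0.02 to 0.03 leaving out 1 mouse), *Mc5r* (0.09 with the replicate block, 0.06 by limma, -0.30 to 0.22 leaving out 1 mouse), *Zbtb16* (-0.27 to 0.01 leaving out 1 mouse), and, with the covariate, *Ccng2* (-0.02), *Btg3* (-0.05, and -0.04 to 0.07 leaving out 1 mouse) and *Apaf1* (-0.02). *Lmna* passed the threshold at 0.23 without fl/fl replicate 1 and at 0.24 without iADKO replicate 6. The cause of these changes was not tested. Low counts limit *Trp53cor1* and *Sco2*.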
